A study of Mus musculus with 4 samples.

Results

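Among 11794 single cells sorted as CD31+/CD45- from embryonic mouse hearts, 57 carried RNA of the complement C1q genes or of the immunoreceptor adaptors Tyrobp and Fcer1g at the level used to call embryonic heart macrophages. They were 26 of 5732 cells at embryonic day 12 (E12), or 0.454% (exact binomial 95% interval 0.297 to 0.664), and at E15 31 of 6062 cells, or 0.511% (0.348 to 0.725). A cell was selected when its unique molecular identifiers (UMIs, each standing for a captured transcript) of C1qa, C1qb, C1qc, Tyrobp and Fcer1g summed to at least 4 and at least 2 of these 5 genes were seen. The selected cells were compared with the cells of the same library that held no UMI of any of the 5 genes, here called background cells, which numbered 5631 at E12 and 5994 at E15. The remaining 75 cells at E12 and 37 at E15 held a UMI of these genes but did not meet the rule, and entered neither group. Of these, 2 at E12 and 3 at E15 had at least 4 UMIs but of 1 gene only. All intervals are exact, cover counting error only, and come from 1 library per stage, so no test between groups was possible and every ratio is a description of these libraries.

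The series followed the coronary endothelium of C57Bl6J mice with droplet libraries at E12, E15, postnatal day 2 and 8 weeks of age, and holds 21920 cells in all. The E12 library pooled the hearts of 37 animals and the E15 library those of 48. At both stages the hearts were digested with Collagenase/Dispase, for longer at E15, stained for the endothelial marker CD31 and the leukocyte marker CD45, sorted as CD31-positive and CD45-negative in several rounds and frozen in DMSO before capture. Stage, library, pool of embryos and length of digestion cannot be told apart, and the gate was set to leave leukocytes out, so the 57 cells are those that passed it and not a sample of the heart's macrophages.

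Macrophages settle in the heart before birth, from yolk sac and fetal liver progenitors, and depend on signals through the receptor Csf1r. They engulf dying cells and debris, digest them in lysosomes and recycle the iron and cholesterol. C1q, the recognition protein that starts the classical complement pathway, is made mainly by macrophages and tags dying cells for uptake, whereas Tyrobp and Fcer1g are signalling partners of Fc and Trem receptors and are shared by many myeloid cells, mast cells and basophils.

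The genes that chose the cells sit at 3 loci, given here on GRCm38 with GENCODE coordinates. C1qa (chr4:136895917-136898803), C1qc (chr4:136889804-136893065) and C1qb (chr4:136880129-136886187) form a cluster on the minus strand of chromosome 4, Fcer1g lies at chr1:171229572-171234365 on the minus strand and Tyrobp at chr7:30413760-30417585 on the plus strand. To show what precedes genes of the selected cells, the 250 bases before the start were searched for 10 short motifs in the RefSeq promoter table (GRCm38.p6). It held 9 of the 14 genes sought, namely the rule genes and the 9 genes that were among the 20 highest at both stages. GAGGAA, read on either strand, is the core of sites bound by PU.1, the myeloid factor encoded by Spi1. It was present in 7 of these 9, against 25.9% of 27025 genes, each counted over any of its promoters. It was in 12 of 25 (48%) when the genes among the 20 highest at either stage were taken. All these genes were chosen by the rule or for their high ratios, so the shares describe them and test nothing. Longer forms of this site were rarer, with GAGGAAGT in 1 of the 9 against 2.79% of all genes and AGAGGAAGT in none against 0.940%. Of the other motifs, GGAAGT was in 4 of the 9 against 22.2% of all genes and TGCTGA in 5 against 18.0%. CATGTG was in 2 against 13.8%, and TGCTGAC in 2 against 4.31%. TTGCGCAA, TGACTCA and CACGTG were in none, against 0.185%, 5.16% and 6.86% of all genes. Stretches of 60 bases around the match, none overlapping an annotated exon, are printed on the gene's own strand for the C1q subunits C1qb and C1qc, the cathepsin Ctss and the chemokine Ccl3, with the match in capitals, GAGGAA or its reverse complement TTCCTC.
C1qb, chr4:136886201-136886260, minus strand: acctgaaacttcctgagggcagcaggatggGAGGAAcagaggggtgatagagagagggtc
C1qc, chr4:136893075-136893134, minus strand: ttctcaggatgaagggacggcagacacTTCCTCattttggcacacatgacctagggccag
Ctss, chr3:95526595-95526654, plus strand: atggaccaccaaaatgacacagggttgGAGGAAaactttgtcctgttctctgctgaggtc
Ccl3, chr11:83649379-83649438, minus strand: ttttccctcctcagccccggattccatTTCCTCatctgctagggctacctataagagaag
Counted from the RefSeq start, which differs from the GENCODE end given above for C1qb and C1qc, the match began 30 bases before the start of C1qb, 193 before that of C1qc, 164 before that of Ctss and 33 before that of Ccl3. A match describes the letters and not binding.

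The selected cells were not alike at the 2 stages in the genes that chose them. Tyrobp had a UMI in every selected cell, whereas a C1q UMI was present in 23 of 26 cells at E12 (88.5%, 69.8 to 97.6) and in 10 of 31 at E15 (32.3%, 16.7 to 51.4). The summed C1qb UMIs were 106 at E12 and 39 at E15, those of C1qc 104 and 26, and those of C1qa 78 and 17. Tyrobp went the other way in level, with 126 UMIs (1986 CPM, the usual counts-per-million scale over all UMIs of the group) at E12 and 158 (3814 CPM) at E15, and Fcer1g had 93 (1466 CPM) and 94 (2269 CPM). Per selected cell the 5 genes summed to a median of 18.5 UMIs at E12, with a highest value of 37, and to a median of 9 at E15, with a highest value of 33. At the threshold, no E12 cell held 4 or 5 UMIs and the lowest held 6, while 4 E15 cells held 4 and 1 held 5. Just outside it, 3 E12 cells and 2 E15 cells held 3 UMIs over at least 2 of the genes. These values describe the choice of cells and support nothing else.

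Genes that the rule did not use placed most selected cells among myeloid cells at both stages. Of a list of 16 macrophage identity genes, at least 2 were seen in all 26 E12 cells and in 26 of 31 E15 cells (83.9%, 66.3 to 94.5), against 4 of 5631 and 3 of 5994 background cells. These counts are not matched for depth, which was greater at E12, and per 1000 UMIs the list had a median of 4.77 at E12 and 6.17 at E15 (5.09 and 8.54 in the cells with C1q). Csf1r, the receptor on which macrophages depend, was seen in 18 of 26 cells at E12, each of which also held C1q, and in 11 of 31 at E15, namely 7 of the 10 with C1q and 4 of the 21 without. It was seen in 0.0710% of background cells at E12 and 0.133% at E15. At an equal depth of 500 UMIs per cell, Csf1r was seen in 34.6% of the selected cells at E12 and 26.7% at E15, a smaller gap than that between the unthinned 69.2% and 35.5%. The 21 E15 cells without C1q held identity genes at 6421 CPM, against 8142 CPM in the 10 with it, but 70 of their 184 UMIs were of the lysozyme Lyz2, and 16 of the 21 held at least 2 of the genes. Adgre1, which encodes the macrophage marker F4/80, had 13 UMIs at E12 and 3 at E15, all in cells with C1q. The label of embryonic heart macrophage was thus met best by the cells that held C1q, of which 18 of 23 at E12 and 7 of 10 at E15 also held Csf1r. Genes of other leukocytes were seen in cells without C1q at both stages and in some cells with it, at least 2 monocyte genes for example in 3 of the 23 C1q cells at E12 and 1 of the 10 at E15. The 33 cells with a C1q UMI are called C1q+ here and the 24 without C1q-.

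Depth and purity were checked before the comparisons. The E12 selected cells held a median of 2210.5 UMIs (771 to 4792) against 1235 in background cells, and the E15 selected cells 1270 (405 to 3067) against 1011. The number of genes seen did not follow this once depth was matched, with medians of 333 and 345 genes at 500 UMIs in selected and background cells at E12, and 317.5 and 346 at E15. Mitochondrial genes took a median of 2.33% of the UMIs at E12 and 2.26% at E15 in selected cells, below the medians of the background cells. None of the 57 cells had a doublet score above 0.15, a limit passed by 4.36% of E12 cells and 3.51% of E15 cells. By the study's own limits on UMIs, genes and mitochondrial share, 2 selected cells at E12 and 1 at E15 would have been left out. The study also removed cells that were not endothelial, blood and immune cells among them. Passing the limits therefore does not mean that a cell was kept there. At least 2 endothelial and at least 2 identity genes were seen together in 3 of 26 selected cells at E12 and 7 of 31 at E15, against 1 background cell at each stage, and whether such cells held RNA of a second cell was not tested. The E12 and E15 libraries shared 52 barcodes, 1 of them that of an E15 selected cell. In the 156803 E12 droplets with fewer than 100 UMIs, which hold free RNA, the 5 rule genes together reached 54.9 CPM. Their 7991 CPM in the selected cells follows from the rule and is no check of purity. Outside the rule, Csf1r was at 4.12 CPM in these droplets and 489 CPM in the selected cells, and Ptprc at 2.75 and 110 CPM.

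The RNA of the sort markers matched the gate, which was set on antibody staining of protein, only in part. Ptprc, which encodes CD45, was seen in 7 of 26 selected cells at E12 and 6 of 31 at E15, against 1 and 3 background cells in all. Pecam1, which encodes CD31, was seen in 2 and 4 selected cells, against 14.7% and 23.4% of background cells. Thinned to 500 UMIs, Ptprc was seen in 7.69% and 3.33% of the selected cells. At that depth Pecam1 was seen in 0 of 26 and 0 of 30 selected cells, against 6.50% and 11.9% of background cells. The summed level of 12 endothelial genes was 299 CPM in the selected cells and 2250 in the background cells at E12, and 1014 against 4376 at E15. At least 2 of these genes were seen in 3 of 26 selected cells at E12 and 8 of 31 at E15, against 54.1% and 81.6% of background cells. Cdh5, the endothelial cadherin, had 3 UMIs in the selected cells at E12 and 0 at E15. Other genes of the list were higher at E15, with Egfl7 at 78.8 and 290 CPM and Ramp2 at 31.5 and 193 CPM.

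At E12 the genes highest over background cells included Fcgr3, Trem2, Csf1r, the chemokines Ccl3 and Ccl4 and the cathepsin Ctss. Of 1333 genes with a mean of at least 100 CPM, 212 (15.9%) were at least 2-fold higher in the selected cells and 191 (14.3%) at least 2-fold lower, with a median ratio of 1.05. Many genes of leukocytes reached this minimum through the selected cells alone, so list counts below take only genes with at least 100 CPM in background cells, where 70 of 1284 (5.45%) were higher and 327 (25.5%) lower. No macrophage identity gene had that level, the whole list being at 17.7 CPM in background cells and at 4681 CPM in the selected cells, where all 16 genes had a UMI. Fcgr3, a receptor for antibody Fc, had 27 UMIs in 15 of the 26 cells and 1 UMI in the 5631 background cells. Trem2, a lipid receptor that signals through Tyrobp, had 32 UMIs in 17 cells and 2 in the background, and Ly86, a partner of toll-like receptor family members, 36 in 16 cells and 2. Csf1r had 31 UMIs in the selected cells and 4 in the background, a ratio of 966 (342 to 3767). Cx3cr1, the fractalkine receptor, had 39 UMIs in 20 cells and 6 in the background, a ratio of 810.3. Each of these receptors had at most 6 UMIs in all background cells together, and each was seen in only a part of the 26 cells.

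Further genes at the top of the E12 order had various roles. Ctss, a cathepsin of antigen-processing cells, had 29 UMIs in 18 cells and none in the background, at least 1205-fold higher when the background is set to 3 UMIs in all. The chemokines Ccl3 and Ccl4 had 30 and 55 UMIs in 10 and 12 cells, against 6 and 18 in the background, ratios of 623 and 381. Pf4, a platelet chemokine also made by tissue macrophages, had 46 UMIs in 13 cells and a ratio of 50.3 (34.9 to 71.4). Lgmn, a lysosomal endopeptidase, had 59 UMIs in 17 cells and a ratio of 61.3, and Ctsc, which activates serine proteases of granules, had 34 UMIs in 17 cells and a ratio of 92.1. Spi1 itself had 26 UMIs in 15 cells against 6 in the background, a ratio of 540.2. The leukocyte genes Rac2, Coro1a and Laptm5 had 24 to 26 UMIs each and ratios of 324, 199 and 73.0. Plac8 had 35 UMIs, of which 23 came from 1 cell, and its log2 ratio of 5.63 was 4.18 without that cell.

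Among the genes lowest in the E12 selected cells were alpha globins and the embryonic beta globin. The alpha globins Hba-a1 and Hba-a2 had 1 and 2 UMIs, and Hba-a1 was 118-fold lower than in background cells. Hbb-y, the embryonic beta globin, had 6 UMIs and was 29.0-fold lower. Of 7 erythroid genes with at least 100 CPM in background cells all 7 were at least 2-fold lower, but per cell the list had a median of 0 in both groups and reached 923.5 UMIs per 1000 in 1 background cell, so the background level rests on few cells. Against background cells with at least 2 endothelial UMIs, the beta globin Hbb-bt turned to a log2 ratio of 0.94. The hemoglobin genes together made up 7280 CPM in background cells, 5610 CPM in the droplets of free RNA and 189 CPM in the selected cells. Serpinh1, a collagen chaperone, and the long noncoding RNA Meg3 had 1 UMI each. By the same minimum 9 of 9 endothelial genes, 4 of 4 endocardial genes and 6 of 6 mesenchyme genes were at least 2-fold lower. Of all genes at that level 25.5% were lower.

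At E15 9 of the 20 highest genes were also among the 20 highest at E12, Ctss, Cd52, Ccl3 and Ccl4 among them, while others such as Ccl9, Cpa3 and Cd74 were not. Of 1298 measured genes, 217 (16.7%) were at least 2-fold higher than in background cells and 224 (17.3%) at least 2-fold lower, with a median ratio of 0.949. In the 10 C1q+ cells alone 434 genes were higher and 193 lower, with no share of measured genes given. There 3 UMIs are 235 CPM, so a gene reaches the minimum by them with none in the background. Of 1349 genes with at least 100 CPM in background cells 56 (4.15%) were higher and 375 (27.8%) lower. The identity list was at 6951 CPM in the selected cells and 21.2 in background cells, and 15 of its 16 genes had a UMI, Mrc1 being the exception. Ctss had 45 UMIs in 16 of the 31 cells and none in the background, at least 2528-fold higher. Cd52, a small surface glycoprotein of leukocytes, was seen in nearly all cells, with 89 UMIs in 28 cells and a ratio of 1363 (726 to 2829). Ccl3, Ccl4 and Cxcl2, chemokines that draw monocytes and neutrophils, had 46, 68 and 48 UMIs in 12, 13 and 9 cells, ratios of 1938, 1637 and 674. Each of these chemokine genes was thus seen in fewer than 14 of the 31 cells.

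Several further genes at the top of the E15 order were carried by a minority of the cells, though Plac8 was seen in 16 cells. Lyz2, the lysozyme of myeloid cells, had 89 UMIs in 12 cells and a ratio of 833. Ccl9, a chemokine of myeloid cells, had 28 UMIs in 10 cells and 1 in the background, and Il1b, the inflammatory cytokine, 25 in 8 cells and 3. Lgals3, galectin-3, had 31 UMIs in 13 cells and a ratio of 871. Cpa3, a carboxypeptidase of mast cell granules, had 94 UMIs in 6 cells and a ratio of 3168 (1310 to 9982). Hdc, which makes histamine, had 35 UMIs in 9 cells and a ratio of 137, and Ifitm1, an interferon-induced membrane protein, had 121 UMIs in 10 cells and a ratio of 224 (169 to 297), with every UMI in a C1q- cell. Cd74, the invariant chain of class II antigen presentation, had 55 UMIs in 7 cells and a ratio of 1030 (505 to 2370), the value that a few cells gave and not a level of the group. Among the lowest genes were Ecscr, an endothelial sialomucin-like protein, at 1 UMI, and the fatty acid carrier Fabp4 at 4. The basement membrane collagen Col4a1 and elastin Eln had 2 UMIs each. Of 12 endothelial genes with at least 100 CPM in background cells 10 were at least 2-fold lower, and 6 of 6 mesenchyme genes were. Of all genes at that level 27.8% were lower.

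**Figure D1:**
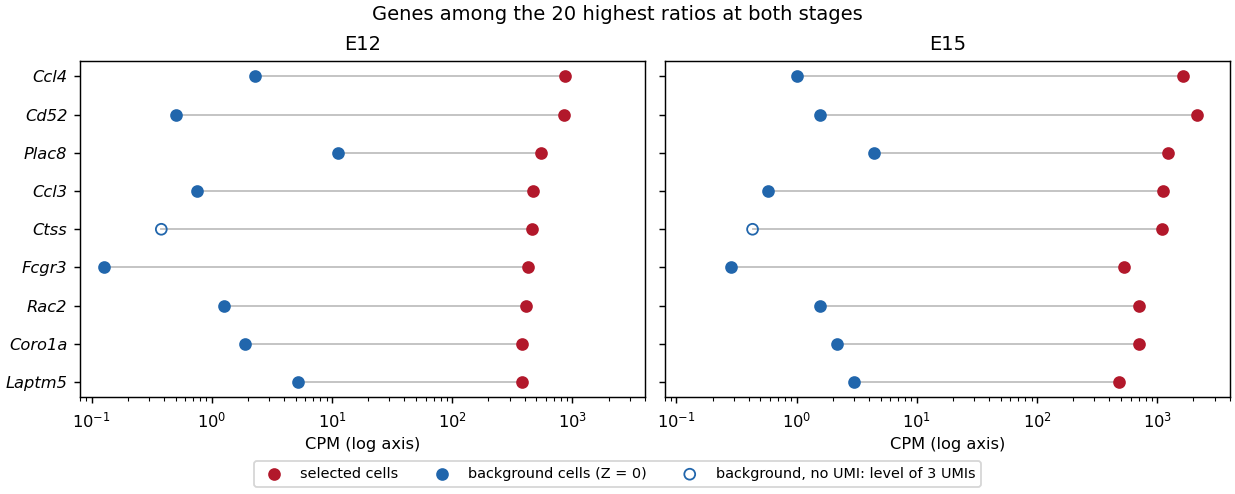
Levels of the 9 genes that were among the 20 highest at both stages, in CPM on a log axis, for selected cells (red) and background cells (blue) at E12 and E15; an open circle marks the level of 3 UMIs where the background held none. The genes were chosen for these ratios. The lowest is that of Plac8 at E12 (49.6), where 23 of 35 UMIs came from 1 cell.

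The E15 selected cells carried mast cell, class II and monocyte genes in sets of cells that partly overlapped, with at least 2 genes of both the mast cell and basophil list and the monocyte list in 3 cells. The 9 genes of the mast cell and basophil list had 233 UMIs (5624 CPM, against 79.6 in background cells), Cpa3 being the most abundant, and at E12 7 UMIs. At least 2 of these genes were seen in 10 of the 31 cells (32.3%), and all 10 were C1q-. In the 10 cells the list had between 2 and 80 UMIs, and 4 cells with 23, 46, 52 and 80 UMIs held most of it. Cma1, a chymase, had 47 UMIs in 4 cells, Mcpt8, a protease of basophils, 11 UMIs in 5 cells, and Gata2, a factor of mast cell and basophil development, 10 UMIs in 7 cells. The antibody receptor subunits Fcer1a and Ms4a2, which define these cells together with Fcer1g, were at 0 UMIs. The 10 C1q+ cells of E15 had no UMI of the list, so it was at least 34.6-fold higher in the C1q- cells of that stage. At E12 1 C1q+ cell held 5 UMIs of 2 of the genes and another held 1.

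Monocyte genes were seen in more of the C1q- cells at E15, while most class II UMIs came from a few cells. Cd74 was seen in 3 C1q+ cells, with 7 UMIs in all, and in 4 C1q- cells, with 48 UMIs, of which 27 and 12 came from 2 cells. The class II chain H2-Aa had 15 UMIs in 4 cells, and H2-Ab1 17 UMIs, none in a C1q+ cell. At E12 Cd74, H2-Aa, H2-Ab1 and H2-Eb1 had no UMI in the selected cells. Ccr2, the receptor that draws monocytes out of the blood, was seen in 12 E15 cells, 10 of them C1q-, in 1 E12 cell and in no background cell. At least 2 genes of the 8-gene monocyte list were seen in 5 of 26 cells at E12 and 13 of 31 at E15, namely 1 of the 10 C1q+ and 12 of the 21 C1q- cells. The dendritic cell list had 1 UMI at each stage, and the lymphoid list 8 and 10, led by Cd79b, a part of the B cell receptor, with 4 at each. The cardiomyocyte list had 3 and 2 UMIs, the mural list 1 and 3 and the epicardial list 0 and 1. At E12 the granulocyte list had 47 UMIs, of which 46 came from 1 C1q- cell that held 16 of the calcium-binding protein S100a8, 15 of the protease Prtn3 and 10 of the elastase Elane.

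**Figure D2:**
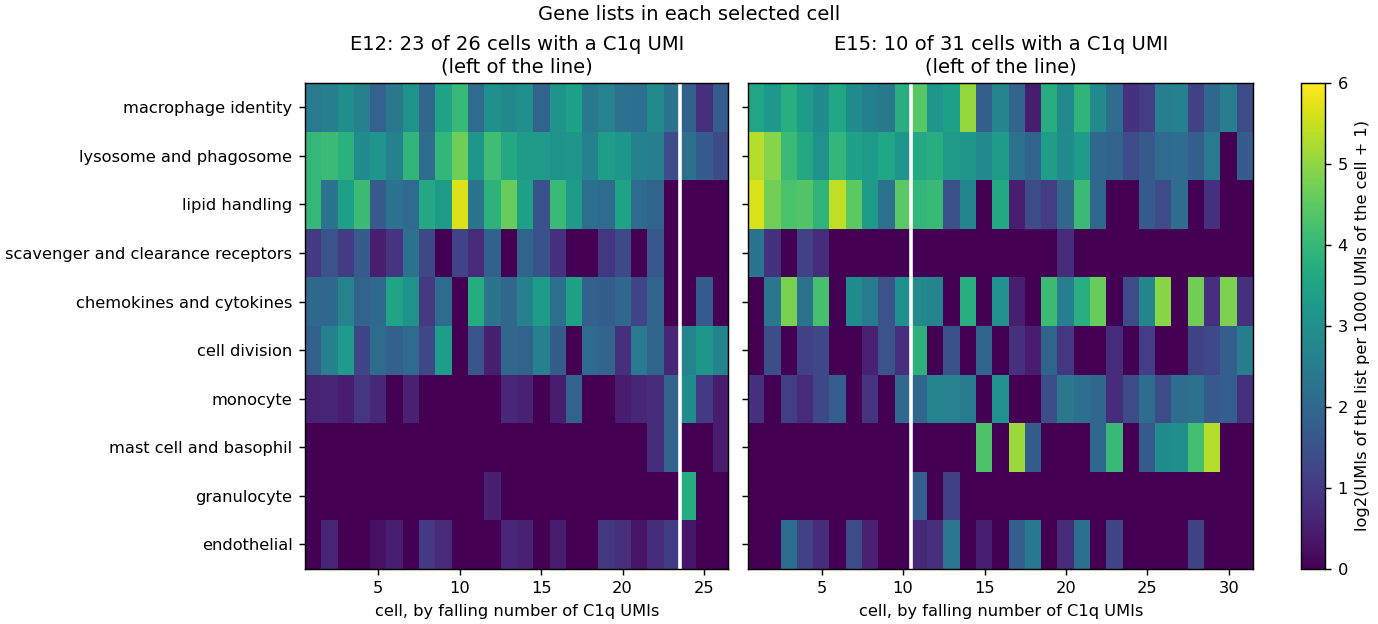
Summed UMIs of 10 gene lists in each of the 26 E12 and 31 E15 selected cells, per 1000 UMIs of the cell and on a log2(value + 1) color scale, with cells ordered by their C1q UMIs and a line between C1q+ and C1q- cells. The mast cell and basophil list is at 0 in all 10 C1q+ cells of E15.

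The summed level of lysosome genes was higher in the selected cells at both stages, and among them highest in the C1q+ cells. The C1q- cells were only 3 at E12, 1 of them with granulocyte genes. At E15 they were 21, part of them with the mast cell and basophil genes given above. Contrasts of C1q+ with C1q- cells, here and in the lists below, also hold this difference in makeup. Of the lysosome and phagosome genes with at least 100 CPM in background cells, 3 of 7 were at least 2-fold higher at E12. At E15 7 of 11 were higher, and 1 gene was lower at each stage. Of all genes at that level, 5.45% were higher and 25.5% lower at E12, and 4.15% and 27.8% at E15. Ctsb, a cathepsin, had 117 UMIs in 20 cells at E12 (1844 CPM against 153, ratio 12.1), and at E15 42 UMIs in 14 cells (1014 CPM against 201, ratio 5.03). Ctsd, the aspartic cathepsin, had ratios of 8.27 and 3.57, and Psap, the precursor of the saposins that help degrade lipids, 2.49 and 5.36. The lower members were Cd63, a tetraspanin of late endosomes (0.453 at E12), and Ctsl, cathepsin L (0.313 at E15). Summed over the list, E12 cells had 9297 CPM (8496 to 10153) where C1q+, 2646 where C1q- and 1920 in the background, and E15 cells had 14874 (12834 to 17146), 5723 and 2812. At E15 the C1q+ cells were 2.60-fold above the C1q- cells in this list.

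Iron storage and lipid transport genes were also highest in C1q+ cells. Ftl1 and Fth1, the light and heavy chains of ferritin, had 647 and 295 UMIs at E12 (ratios 2.54 and 3.03) and 361 and 244 at E15 (ratios 2.42 and 4.26), and Ftl1 was seen in all 26 and in 30 of 31 cells. The whole list of iron and heme handling reached 17374 CPM in C1q+ cells at E12 and 26930 at E15, against 5655 and 5134 in background cells. Apoe, which carries cholesterol out of cells, had 352 UMIs in 21 E12 cells (5548 CPM against 594, ratio 9.34, 8.36 to 10.4) and 331 UMIs in 25 E15 cells (7989 CPM against 1584, ratio 5.04, 4.51 to 5.63). The lipid list, of which Apoe was the most abundant gene, was at 7926 CPM in C1q+ cells at E12 and 20276 at E15, and had no UMI in the 3 C1q- cells of E12 and 3455 CPM in those of E15. Per single cell the macrophage identity list ranged from 0.780 to 15.6 UMIs per 1000 at E12 (median 4.77) and reached 32.3 at E15 (median 6.17), and the lysosome list from 1.57 to 24.6 (median 7.86) and from 0 to 39.4 (median 7.87). The lipid list ranged from 0 to 50.6 UMIs per 1000 at E12 (median 3.90) and from 0 to 49.9 at E15 (median 3.45).

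Uptake receptors, which clear proteins and dying cells, were sparse. Dab2, an adaptor of receptor uptake, had 43 UMIs in 14 cells at E12 (ratio 10.5) and 2 UMIs at E15. Mrc1, the mannose receptor, had 11 UMIs in 8 E12 cells and 0 at E15, and Stab1, a scavenger receptor of macrophages and some endothelium, 14 and 1. Lyve1, the hyaluronan receptor, and Folr2, a folate receptor, had 6 and 4 UMIs at E12 and 0 at E15. Timd4, a receptor for dying cells, had 1 UMI at E12, and Cd163, which takes up hemoglobin, had none at either stage. These genes define resident macrophages in many tissues, and at this depth most were at or near 0 at E15, where 3 UMIs correspond to 72.4 CPM.

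Fc receptor and chemokine lists had far higher summed levels in the selected cells at both stages. The Fc receptor and ITAM signalling list was at 2002 CPM at E12 and 1907 at E15 against 38.9 and 54.0 in background cells, with Trem2 its most abundant gene at E12 and Fcgr3 at E15. The list of chemokines and cytokines summed to 3767 and 5962 CPM against 161 and 257, with Ccl4 the most abundant gene at both stages. C1q+ cells were at 4320 CPM of it at E12 and 6654 at E15, and C1q- cells at E15 at 5653. Lst1, a leukocyte gene of the class III region, had 46 UMIs in 21 cells at E12 (ratio 106) and 39 in 19 at E15 (ratio 83.2), and Alox5ap, which helps make leukotrienes, 13 in 9 cells (ratio 70.5) and 31 in 16 (ratio 163). Few interferon response genes had at least 100 CPM in background cells. At E12 1 of 2 was at least 2-fold higher and 1 lower, and at E15 1 of 3 was higher. Of all genes at that level, 5.45% were higher and 25.5% lower at E12, and 4.15% and 27.8% at E15. Ifitm2, an antiviral membrane protein, had ratios of 0.208 and 1.52.

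The complement receptors C3ar1 and C5ar1 had 11 and 7 UMIs at E12 and 5 and 5 at E15. Their background was 0 UMIs at E12. Neither ligand of Csf1r was found in the selected cells, with Csf1 and Il34 at 0 UMIs at both stages. Among lineage transcription factors, Maf, a factor of tissue macrophages, had 24 UMIs in 14 E12 cells (ratio 17.9) and 3 UMIs at E15, and Cebpb, a factor of myeloid differentiation and inflammation, 15 UMIs at E12 (ratio 5.72) and 42 at E15 (ratio 22.5). Of genes known from brain macrophages, the receptors P2ry12 and Gpr34 had 3 UMIs each at E12 and 1 and 3 at E15. Others of that list were more abundant, with Fcrls, an Fc receptor-like gene, at 20 UMIs in 11 E12 cells and 0 at E15, and Cst3, a protease inhibitor, at 91 and 70 UMIs (ratios 4.71 and 3.43). Igf1, a growth factor, was lower than in background cells at both stages, with ratios of 0.307 and 0.0932, and Vegfa, the vessel growth factor, had no UMI. Of the growth factor and remodelling genes with at least 100 CPM in background cells, 3 of 5 were at least 2-fold lower at E12 and 3 of 3 at E15, beside 25.5% and 27.8% of all genes at that level.

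Immediate-early genes, which are switched on within minutes of a stimulus, had higher summed levels in selected cells. Among those with at least 100 CPM in background cells, 1 of 5 was at least 2-fold higher and 1 lower at E12. At E15 4 of 6 were higher. Of all genes at that level, 5.45% were higher and 25.5% lower at E12, and 4.15% were higher at E15. Fos had 63 UMIs at E12 (ratio 2.78) and 64 at E15 (ratio 3.82), and Atf3 18 (ratio 7.31) and 21 (ratio 15.8). The list was at 4339 CPM in C1q+ cells, 3037 in C1q- cells and 1907 in background cells at E12, and at 8533, 5932 and 2020 at E15. In background cells the list thus differed little between the stages. Of cell division genes at that level, 0 of 5 differed 2-fold at E12 (median ratio 1.07), and 3 of 6 were lower at E15, beside 27.8% of all genes at that level. Mki67, a marker of cycling cells, had 5 UMIs in 5 cells at E12 and 0 at E15, against 44.5 and 31.1 CPM in background cells. Summed, the division list was at 3212 CPM in C1q+ cells at E12 and at 861 (430 to 1541) at E15.

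**Figure D3:**
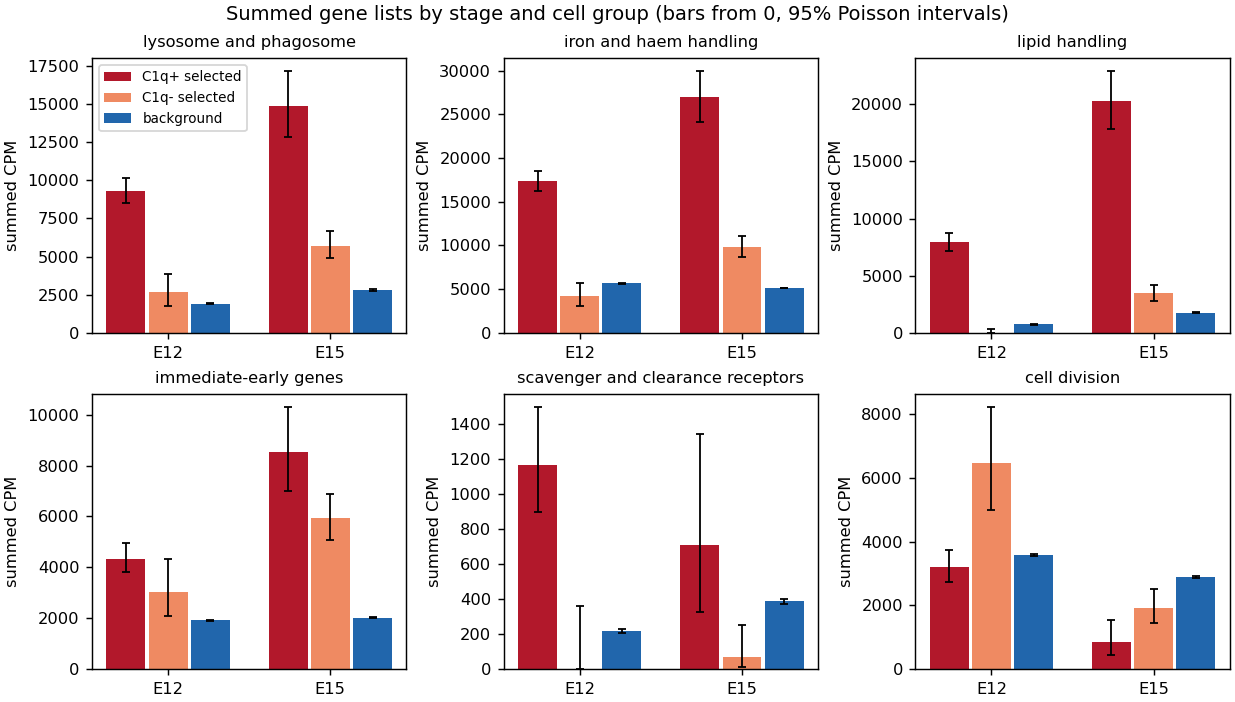
Summed levels of 6 gene lists in CPM for C1q+ selected cells, C1q- selected cells and background cells at E12 and E15, with bars from 0 and exact Poisson 95% intervals. The lysosome, iron and lipid lists are highest in C1q+ cells at both stages. The C1q- cells were 3 at E12 and 21 at E15, and some of them held genes of other leukocytes.

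Between the stages, the selected cells at E15 had more UMIs of mast cell and basophil genes and of class II genes, and fewer of Pf4, Dab2, Ccl2, Mrc1 and Maf. In the C1q+ cells of E15 Maf had 3 UMIs (235 CPM) and Mrc1 none, against 378 and 173 CPM in all E12 selected cells. Since 3 UMIs in those E15 cells are 235 CPM, a decrease of Mrc1 in C1q+ cells was not shown. Of 1281 measured genes 176 (13.7%) were at least 2-fold higher at E15 and 199 (15.5%) at least 2-fold lower, with a median ratio of 0.957. In C1q+ cells alone 361 were higher and 173 lower, with no share of measured genes given, and there 3 UMIs at E15 bring a gene to the minimum. The antigen presentation list was at 2017 CPM at E12 and 5624 at E15 (ratio 2.79). Cd74 had 0 UMIs at E12 and 55 at E15, at least 28.1-fold higher, and Cma1 0 and 47, at least 24.0-fold higher. Ifitm1 had 6 and 121 UMIs (ratio 30.9, 13.8 to 85.8), against a ratio of 1.31 in background cells. Tpsb2, a tryptase, had 32 UMIs at E15, all in 1 cell. These genes were carried largely by C1q- cells, which were 3 of 26 at E12 and 21 of 31 at E15, so the stage ratios of all selected cells also hold the difference in makeup.

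Restricted to the 23 and 10 C1q+ cells, Spp1, Lyz2 and Apoe were higher at E15, although 1 UMI in the 10 E15 cells is 78.3 CPM and so counts past 2-fold rest on few UMIs. Spp1, osteopontin, had 1 UMI at E12 and 30 at E15, all in 3 C1q+ cells (ratio in C1q+ cells 125, in background cells 0.809). Of the 30 UMIs 19 came from 1 cell, so the Spp1 ratio rests largely on that cell. Lyz2 was at 263 and 1487 CPM (ratio 5.66, 2.69 to 12.2), and Apoe at 6611 and 18866 CPM (ratio 2.85, 2.41 to 3.37), but Apoe had a ratio of 2.67 in background cells too. The lipid list had a ratio of 2.56 (2.18 to 2.99) in C1q+ cells and 2.38 in background cells, and the lysosome list 1.60 (1.35 to 1.89) and 1.46. Both lists were thus higher at E15 by about as much in the background as in the C1q+ cells. The ratio of the iron list was 1.55 against 0.908 in background cells, that of immediate-early genes 1.97 (1.55 to 2.48) against 1.06, and that of cell division genes 0.268 (0.131 to 0.492) against 0.808.

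Several macrophage genes were at like levels in C1q+ cells of the 2 stages within wide intervals. Csf1r was at 582 CPM at E12 and 548 at E15 (ratio 0.941, 0.350 to 2.18), an interval that leaves room for a 2-fold difference either way. Ctsb was at 2198 and 2427 CPM, and Lgmn at 1108 and 1018. Others were lower at E15. Pf4 had 46 UMIs at E12 and 1 at E15 (30.0-fold lower, 5.13 to 1212), with a ratio of 0.0906 (0.00225 to 0.531) in C1q+ cells. Ccl2, the chemokine that recruits monocytes, had 36 and 3 UMIs (7.84-fold lower), and in C1q+ cells 36 and 0. Dab2 had 43 and 1 UMIs in C1q+ cells (ratio 0.0969, 0.00240 to 0.570). Gatm, an enzyme of creatine synthesis, had 31 and 2 UMIs, all in C1q+ cells, with a ratio of 0.269 there and an interval (0.0312 to 1.06) that includes 1. Of the lower genes, S100a8 and Loxl2, a matrix crosslinking enzyme, owed 16 of 16 and 16 of 20 E12 UMIs to 1 cell each, so their values rest on single cells. Thbs1, thrombospondin-1, went opposite ways in selected and background cells. It had 1 UMI in 26 cells at E12 and 22 UMIs in 10 cells at E15 (ratio 33.7, 5.45 to 1390), while background cells had 232 CPM at E12 and 56.0 at E15 (ratio 0.241).

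**Figure D4:**
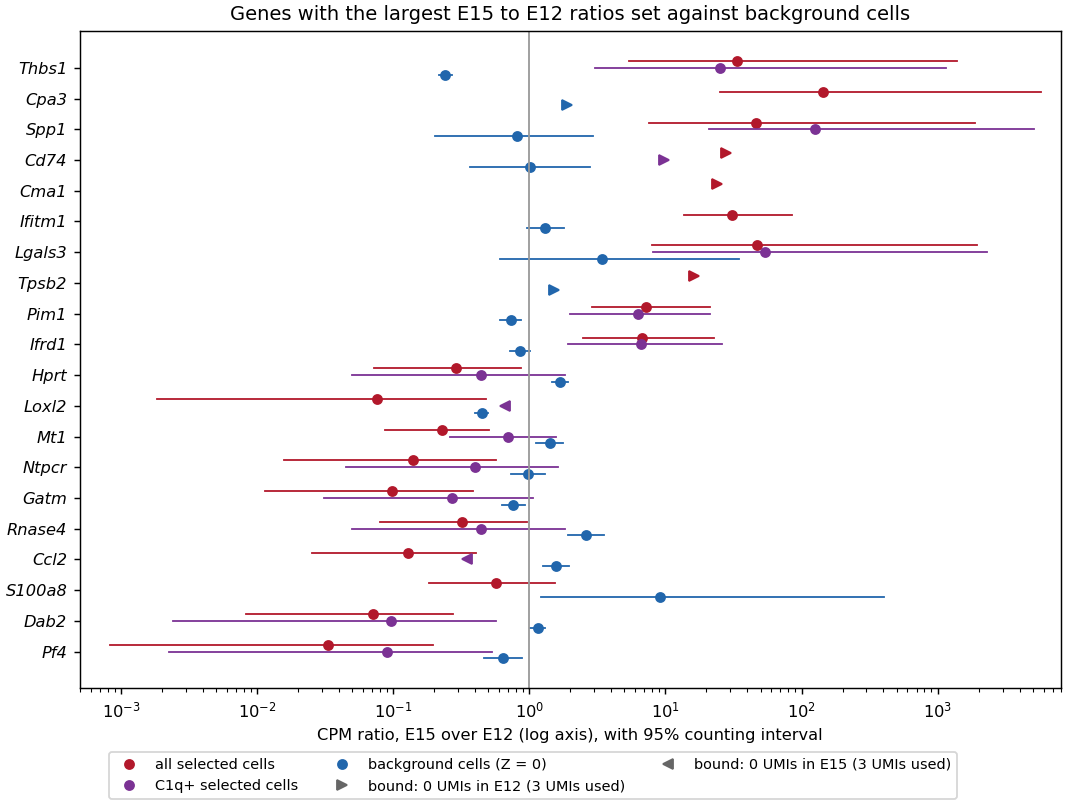
Ratio of E15 to E12 levels on a log axis for the 10 genes highest and the 10 lowest in the stage ratio of selected cells divided by that of background cells, shown in all selected cells, in C1q+ selected cells and in background cells; triangles are bounds where a group held no UMI, and lines are exact 95% intervals. Pf4, Dab2 and Ccl2 lie below 1 in the selected cells, and Thbs1 lies above 1 there and at 0.241 in background cells.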

How the data were processed

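The authors processed the reads with Cell Ranger 2.2 on mm10 (per the submitters' processing notes) and deposited UMI counts, not normalized, for 27998 genes in 1 library per stage. The E12 matrix held 737280 barcodes, of which those with at least 452 UMIs were taken as cells; the E15 matrix was used as deposited. Cells held 8122358 UMIs at E12 and 7079759 at E15. Counts were summed over the cells of a group and divided by the group's UMIs (CPM). Ratios have exact conditional binomial intervals and shares Clopper-Pearson intervals at 95%. A group at 0 was set to 3 UMIs. A gene was measured where the mean of both groups was at least 100 CPM, and counted as higher or lower past 2-fold; lists were counted over genes with at least 100 CPM in background cells, chosen after seeing the data. Shares of cells were also computed after thinning each cell to 500 UMIs, which left out 1 selected cell. Doublets were scored with a simulation written in the style of Scrublet and none of the selected cells was removed. The scripts were tested on simulated data.

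The cells and gene lists were chosen with earlier results of these data known. Named genes were all those of the lists, the 20 highest (with at least 20 UMIs in 5 cells) and 10 lowest ratios per stage, and the 10 highest and 10 lowest E15 to E12 ratios after division by the same ratio in background cells (at least 20 UMIs over both stages). Of 331 listed symbols 329 matched. Alternatives changed the rule, the background, the level filter, the fold and the thinning. Python 3.11.15, numpy 2.4.6, scipy 1.17.1, pandas 2.3.3, scikit-learn 1.9.0 and matplotlib 3.10.9 were used.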

Additional observations from a re-analysis of the deposited data

Results flagged for a closer look

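Thbs1 was lower in the selected cells than in the background cells at E12, with a ratio of 0.0678 (1 UMI), and higher at E15, with a ratio of 9.48 (22 UMIs in 10 cells). It was singled out because the direction turned between the stages. The difference was not tested, since there was 1 library per stage.

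The adult library, which enters none of the comparisons, held 16 cells that passed the same rule, above the level of 3 cells that a count of 0 would allow.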

How the results depend on the processing

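No paired analysis was possible because each stage has 1 library and all titles carry the same replicate number. Of 3274 recomputed log2 ratios of named genes, 3000 stayed within the counting interval, 269 moved beyond it and 5 changed sign. The share of selected cells was 0.230% at E12 and 0.298% at E15 with every cell thinned to 500 UMIs, and at E15 0.198% with at least 10 UMIs of the rule genes, 0.165% with a C1q UMI and 0.346% without the 10 cells holding mast cell and basophil genes. Leaving out those cells, or the cell with granulocyte genes, was chosen after seeing the data. Genes past 2-fold numbered 403 at E12, 441 at E15 and 375 between stages. They were 889, 997 and 981 with a minimum of 50 CPM, 165, 191 and 145 with 200 CPM, 3033, 2737 and 1472 with no minimum, and 250, 263 and 168 past 3-fold. With C1q+ cells only, 434 genes were higher and 193 lower at E15, and 361 and 173 between stages, where 1 UMI in the 10 cells is 78.3 CPM. With at least 10 rule UMIs the splits were 348 and 227, and 312 and 216. Without the mast cell and basophil cells they were 275 and 233, and 218 and 211. These splits stand without the number of genes measured in each case. Not thinned, Csf1r was seen in 69.2% of E12 cells and Ptprc in 26.9% and 19.4%. Reversed log2 ratios were those between stages of Ccl3 (-0.083) and H2-D1 (-0.80) with at least 10 rule UMIs, of Egfl7 (-0.26) and H2-D1 (-0.16) with C1q+ cells only, and of Hbb-bt at E12 (0.94) against background cells with at least 2 endothelial UMIs. The causes were not tested. Without the mast cell and basophil cells, the log2 ratio of Ifitm1 at E15 was 4.46 against 7.81, and Ifitm1 had no UMI in the cells with C1q or with at least 10 rule UMIs. A minimum of 100 CPM on background cells alone, also chosen after seeing the data, gave 70 higher and 327 lower genes at E12 and 56 and 375 at E15.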

Other observations

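The 16 adult cells that passed the rule came from 4242 cells (0.377%) and held a median of 4601 UMIs, and 13 of them had a C1q UMI. Their 5 rule genes summed to a median of 54 UMIs. Class II genes were abundant, with 1366 UMIs of Cd74 (17762 CPM) and 380 of H2-Ab1. Lyz2 had 1191 UMIs (15486 CPM), Apoe 1283 and Pf4 251 (3264 CPM). The receptors Mrc1, Lyve1 and Cd163 had 33, 24 and 14 UMIs, and Csf1r had 39 UMIs in 15 of the 16 cells. Cpa3 and Cma1 had none. The postnatal day 2 library had no cell that passed among 5884, which by the 3-count floor (3 of 5884 cells) allows a share of up to 0.0510%, and no cell there held more than 2 UMIs of the rule genes. The adult and postnatal hearts were digested with a further enzyme, and red blood cells were lysed in the adult samples. After thawing, adult and postnatal cells were sorted again for live cells, while a dead cell removal kit was used at E12 and E15. No test between these and the embryonic cells was possible.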
